A study of Mus musculus with 8 samples.

Results

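The mouse Hox genes are the homeobox genes whose symbols are Hoxa, Hoxb, Hoxc or Hoxd followed by a number. By that rule 39 of the 21887 protein-coding genes in a RefSeq table of the mm10 build were taken, and peaks were read at their ends and across each cluster with 50 kb added on both sides. The Hoxa cluster has 11 of them on chromosome 6, and the Hoxb cluster has 10 at chr11:96194316-96368254. The Hoxc cluster has 9 at chr15:102921131-103036856, and the Hoxd cluster has 9 at chr2:74668225-74765142. The clusters span 106 kb, 174 kb, 116 kb and 96.9 kb in that order, and their 4 windows add up to 892 kb.

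Hox proteins are DNA-binding transcription factors that give cells along the head-to-tail axis their position. The genes lie in the order in which they are used, from the low-numbered genes of the hindbrain to the high-numbered genes of the trunk and tail. Trithorax proteins keep them active where they are needed and Polycomb proteins keep them silent elsewhere. The cerebral cortex lies in front of the region in which Hox genes act, and Polycomb silencing of whole Hox clusters is well known there. Chd7 and Chd8 are CHD-family enzymes that use ATP to move nucleosomes, and fly genetics places them with the Trithorax group through their relative kismet.

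DNA bound by either remodeler was isolated by chromatin immunoprecipitation (ChIP) and sequenced, from untreated wild-type mice of postnatal day 7. Magnetic sorting with an antibody to O4, a glycolipid antigen on the surface of oligodendrocyte lineage cells, had enriched the cells, which the labels call OPC (oligodendrocyte precursor cells) and place in cortex and corpus callosum. The 8 libraries were 2 Chd7 ChIPs (called 1 and 2 below), 1 Chd8 ChIP (number 3), 2 mock ChIPs with rabbit IgG (1, and 2-3 for both later ChIPs) and 3 inputs (1, 2 and 3, 1 for each ChIP). All groups share genotype, age and tissue, and the number of mice behind a library was not given in the sources used here. Chd8 has 1 library, so no Chd8 value has a replicate error, and with 2 Chd7 libraries no test over samples was made.

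Each library came as a list of peaks with a fold over the local background and a −log10 q, both computed by the authors' caller. The lists held 5282 and 6292 peaks for Chd7, 18415 for Chd8, 89 and 98 for the mocks, and 109486, 178478 and 91628 for inputs 1, 2 and 3. ChIP peaks that touched a mock peak were left out, which kept 5218, 6237 and 18350, and 1383 regions were found in both Chd7 lists. Peaks under the caller's threshold are not listed, so a gene without a peak may hold weaker signal. Read depth is unknown, and intervals cover counting error only. They take each Hox gene as a separate draw, though genes of a cluster adjoin and can share peaks, so they are too narrow. Fold was not compared between libraries.

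Promoter sequences are shown first for the Hox gene with a remodeler peak at its start. For each cluster, a Hox gene with no peak of any library at an end is shown too. It is the one with the most CG dinucleotides among such genes with a sequence window at hand. In Hoxc, only Hoxc4 had a window. They run from 250 bases before to 50 bases after a RefSeq start, on the gene's strand, with every CG dinucleotide in capitals (RefSeq, GRCm38.p6). The Hoxa3 window at chr6:52213018-52213317 is on the minus strand, and the Chd8 peak covers its bases 6 to 258. Hoxa13 stands at chr6:52260831-52261130 on the minus strand, Hoxb4 at chr11:96318017-96318316 on the plus strand, Hoxc4 at chr15:103034145-103034444 on the plus strand and Hoxd13 at chr2:74667975-74668274 on the plus strand.
Hoxa3: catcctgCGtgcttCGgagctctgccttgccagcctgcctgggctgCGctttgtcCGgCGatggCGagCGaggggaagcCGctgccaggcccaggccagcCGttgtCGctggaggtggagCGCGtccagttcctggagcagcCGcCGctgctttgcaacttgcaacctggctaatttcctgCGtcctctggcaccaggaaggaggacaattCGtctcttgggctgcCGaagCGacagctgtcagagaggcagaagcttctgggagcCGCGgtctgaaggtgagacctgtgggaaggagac
Hoxa13: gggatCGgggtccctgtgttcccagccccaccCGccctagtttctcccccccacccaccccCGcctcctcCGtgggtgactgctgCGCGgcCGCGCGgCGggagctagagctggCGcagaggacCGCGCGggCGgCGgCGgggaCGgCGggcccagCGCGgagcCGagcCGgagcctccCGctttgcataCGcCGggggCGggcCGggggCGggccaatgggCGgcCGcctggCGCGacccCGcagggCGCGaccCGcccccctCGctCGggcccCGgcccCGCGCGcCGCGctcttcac
Hoxb4: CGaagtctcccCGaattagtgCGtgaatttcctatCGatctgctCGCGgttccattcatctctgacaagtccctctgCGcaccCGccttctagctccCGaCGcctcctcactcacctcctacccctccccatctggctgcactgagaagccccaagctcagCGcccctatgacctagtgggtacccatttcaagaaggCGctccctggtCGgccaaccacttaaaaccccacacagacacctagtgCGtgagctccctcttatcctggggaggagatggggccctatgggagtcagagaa
Hoxc4: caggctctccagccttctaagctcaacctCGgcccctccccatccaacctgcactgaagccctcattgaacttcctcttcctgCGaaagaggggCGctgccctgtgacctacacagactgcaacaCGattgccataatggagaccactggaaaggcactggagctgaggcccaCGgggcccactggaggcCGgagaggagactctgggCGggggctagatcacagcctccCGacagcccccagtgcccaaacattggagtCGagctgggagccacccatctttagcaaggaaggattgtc
Hoxd13: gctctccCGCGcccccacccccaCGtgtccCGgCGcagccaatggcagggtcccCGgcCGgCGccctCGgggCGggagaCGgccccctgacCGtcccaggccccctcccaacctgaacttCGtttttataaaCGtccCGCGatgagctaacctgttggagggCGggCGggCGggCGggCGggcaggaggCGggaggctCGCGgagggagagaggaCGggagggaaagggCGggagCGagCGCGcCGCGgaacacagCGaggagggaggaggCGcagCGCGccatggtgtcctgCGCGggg
The Hoxa3 window holds 20 CG dinucleotides at 64% GC, the Hoxa13 window 45 at 81%, the Hoxb4 window 14 at 58%, the Hoxc4 window 9 at 60.3% and the Hoxd13 window 37 at 74.3%.

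Chd7 was listed at the ends of no Hox gene, and Chd8 at the end of 1. A gene end was either boundary of the gene with 1 kb on both sides. Chd7 ChIP 1 had a peak there in 0 of 39 Hox genes, where 10.4% of all protein-coding genes had one. Chd7 ChIP 2 had 0 of 39 against 17.0%, and regions found in both Chd7 lists had 0 of 39 against 4.83%. For 0 of 39 the 95% Clopper-Pearson interval is 0 to 9.03%, which holds the 4.83% of regions in both lists. The Chd8 list had a peak at the end of Hoxa3 only, 1 of 39 or 2.56% (95% Clopper-Pearson interval 0.0649 to 13.5%), against 41.0% of all protein-coding genes. Both mocks had 0 of 39, with 0.0183% and 0.0137% of all genes. Hoxa3, a gene of the hindbrain and neck, was thus the single Hox gene with a remodeler peak at an end, in the Hoxa cluster, and the other 38 had neither protein listed within 1 kb of a boundary.

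The inputs, sequenced chromatin without an antibody, did list peaks at Hox gene ends. Input 1 had 3 of 39 Hox genes (7.69%, interval 1.62 to 20.9%) where all genes had 21.9%, at Hoxd3, Hoxa4 and Hoxc11. Input 2 had 6 of 39 (15.4%, interval 5.86 to 30.5%) where all genes had 28.4%, at Hoxd11, Hoxd1, Hoxa11, Hoxb9, Hoxb2 and Hoxc12. Input 3, the input of the Chd8 ChIP, had 19 of 39 (48.7%, interval 32.4 to 65.2%) where all genes had 45.2%. The share of all genes lay inside the Hox interval for inputs 2 and 3 and just above it for input 1. Neighbouring Hox genes are not separate draws, so these intervals are too narrow and decide no difference for input 1. By cluster, input 3 had 6 of 11 Hoxa genes, 2 of 10 Hoxb genes, 6 of 9 Hoxc genes and 5 of 9 Hoxd genes. The Hoxa genes were Hoxa2, Hoxa3, Hoxa4, Hoxa5, Hoxa6 and Hoxa10, of which Hoxa5 and Hoxa6 shared 1 peak. The Hoxc genes were Hoxc6, Hoxc8, Hoxc9, Hoxc10, Hoxc11 and Hoxc12, the middle of that cluster. No Hox gene had a peak of all 3 inputs at an end, where 11.0% of all genes had, and 17 Hox genes (all genes 44.9%) had none.

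**Figure D1:**
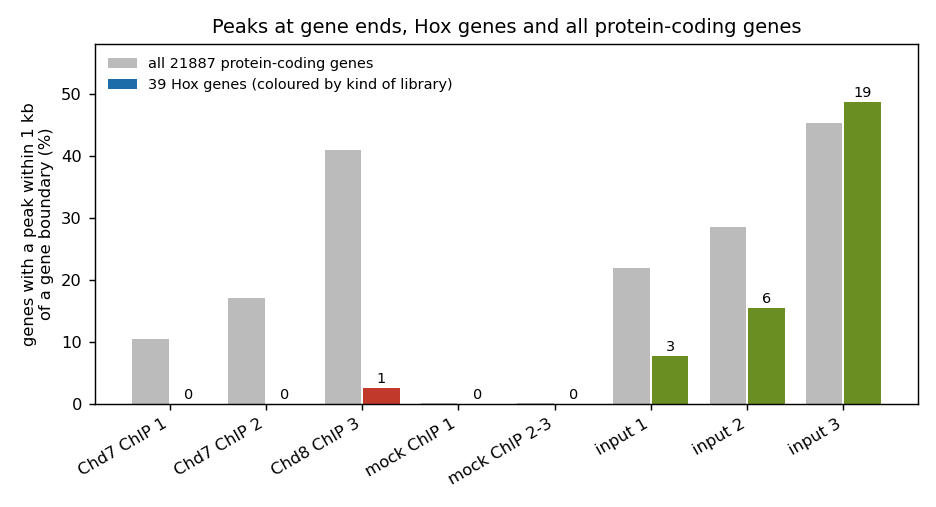
The percentage of genes with a listed peak within 1 kb of either gene boundary (vertical axis) is drawn for each library, in grey for all 21887 protein-coding genes and in colour for the 39 Hox genes, with the number of Hox genes above each coloured bar. Chd7 and mock bars stand at 0 for Hox genes, Chd8 at 1 gene against 41.0% of all genes, and input 3 at 19 genes against 45.2%.

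Chd8 and input 3 peaks were also read together, gene by gene. Of all protein-coding genes with an input 3 peak at an end, 66.3% had Chd8 there too, and of genes without, 20.1% had. Hox genes had 1 of 19 with an input 3 peak and 0 of 20 without, both under the share of all genes of the same kind. The 1 gene, Hoxa3, had separate peaks of both: the input 3 peak lay at chr6:52211356-52212225, inside the gene, and did not touch the Chd8 peak. By the labels input 3 is the match of the Chd8 ChIP. By the track names it would be input 2, with 6 of 39 Hox genes (15.4%) against 28.4% of all genes. What sets the peaks of either input was not tested.

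By position in the paralogue series, Chd8 was listed in 1 of 12 genes numbered 1 to 4, the hindbrain end. It was in 0 of 11 numbered 5 to 8 and 0 of 16 numbered 9 to 13, the trunk and tail end. All protein-coding genes had 41.0%. The 1 gene was Hoxa3, whose annotated span runs over Hoxa4, Hoxa5 and Hoxa6. Its peak lies between Hoxa6 and Hoxa7, in the middle of the cluster. Input 3 was listed in 5 of 12, 6 of 11 and 8 of 16 genes of the same ranges, beside 45.2% of all genes. Input 2 had 2, 0 and 4 genes, beside 28.4% of all genes, and input 1 had 2, 0 and 1, beside 21.9%. The input counts are too few to order the ranges, and 1 Chd8 gene gives no order along the series.

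Across whole clusters, flanks included, the ChIP lists held 4 peaks, all of them in the Hoxa window. The map of peaks across the clusters shows them. Chd7 ChIP 1 had 1 peak in the 892 kb, in a flank, Chd7 ChIP 2 had 0, and no region was found in both. Chd8 had 3, 2 between the first and last Hoxa gene and 1 in the flank. Both mocks had 0. The Hoxb, Hoxc and Hoxd windows held no Chd7 and no Chd8 peak.

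**Figure D2:**
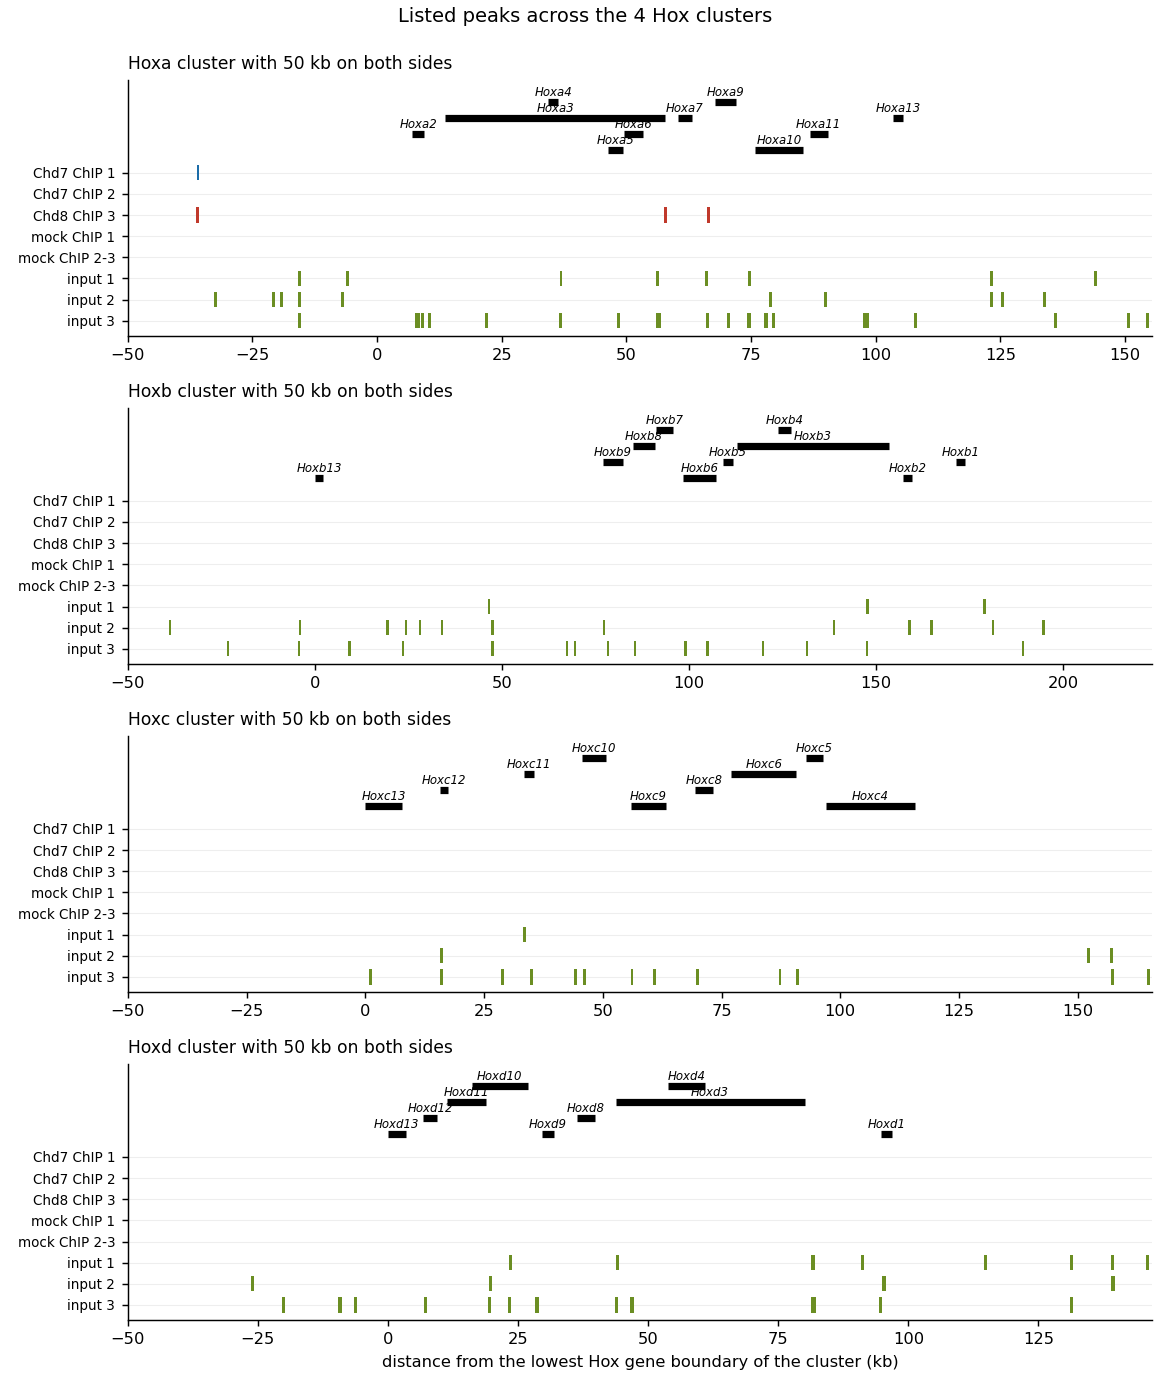
Each panel shows 1 Hox cluster with 50 kb on both sides, with distance from the lowest Hox gene boundary in kb on the horizontal axis, gene bodies as black bars (1 Hoxa gene is not drawn), and 1 line of ticks for the peaks of each library (drawn at least 0.6 kb wide). The 1 Chd7 ChIP 1 peak and the 3 Chd8 peaks lie in the Hoxa panel, and the 59 input 3 peaks are spread over all 4 panels.

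The peak at the Hoxa3 start, chr6:52213060-52213312, was 253 bp wide with a Chd8 fold of 3.81 and a −log10 q of 1.81. It was among the weakest of the Chd8 list: 6 of the 18350 peaks had a lower fold and 16454 a higher one. It touched no peak of any other library. It overlaps the Hoxa3 boundary and lies inside Hoxaas3, a long noncoding RNA gene that RefSeq places across this end of Hoxa3. RefSeq gives Hoxa3 a span of 44009 bp that runs over Hoxa4, Hoxa5 and Hoxa6. The peak thus lies between Hoxa6 and Hoxa7, 4.39 kb and 2.31 kb from their nearer boundaries.

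A second Chd8 peak lay between Hoxa7 and Hoxa9, trunk genes of the middle of the cluster, at chr6:52221749-52221857. Its fold was 4.44 with a −log10 q of 2.71, and 48.7% of Chd8 peaks had a lower fold. Its midpoint was 1.29 kb from Hoxa9, outside every annotated gene body. It lay inside a 734 bp peak of input 3 with a fold of 3.70, so 1 of the 3 Chd8 peaks touched the matching input, where 40.3% of all Chd8 peaks did.

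The flank peak was listed for both proteins. Chd7 ChIP 1 had chr6:52119351-52119522 with a fold of 5.58 and a −log10 q of 3.70, above 91.0% of its list. The Chd8 peak at chr6:52119310-52119464 had a fold of 4.01 and a −log10 q of 2.09, above 21.5% of its list. The 1 Chd7 peak of the Hox windows thus touched a Chd8 peak, as did 78.8% of all Chd7 ChIP 1 peaks. Chd7 ChIP 2 had no peak there, and no input did. The site lies 35.8 kb outside the cluster.

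Per length, the windows held 0.336 Chd8 peaks per 100 kb where the genome held 0.674, so 3 peaks were listed where the genome's density gives 6.01. Chd7 ChIP 1 had 1 where its density gives 1.71, and Chd7 ChIP 2 had 0 where its density gives 2.04. With so few peaks, the lower density across the windows is a small difference in number for Chd7. The Chd8 peaks covered 517 bp or 0.0580% of the windows, against 0.321% of the genome.

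Inputs 1 and 2 were also sparse in the windows, at 20 and 30 peaks, or 2.24 and 3.36 per 100 kb where the genome had 4.02 and 6.56. Input 3 went the other way, with 59 peaks or 6.61 per 100 kb against 3.37 genome-wide, and 45 of the 59 lay inside the clusters, where its density was 9.14 per 100 kb. Input 3 covered 2.29% of the windows against 1.26% of the genome. By window, input 3 had 19 peaks in Hoxa, 15 in Hoxb, 13 in Hoxc and 12 in Hoxd, input 1 had 8, 3, 1 and 8, and input 2 had 10, 13, 3 and 4. The high density of input 3 thus held in every cluster window, and it was not shared by the other inputs. Of the 59 input 3 peaks 25.4% were found in another input, where 53.5% of its whole list were. The share was lower in the windows for the other inputs too, at 26.7% against 47.6% for input 2 and 60% against 74.0% for input 1.

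Within the input 3 list, the window peak with the highest fold was one of 944 bp at Hoxa2, the gene that patterns the second branchial arch, at chr6:52162945-52163888 with a fold of 9.51 and a −log10 q of 13.6. A neighbour at chr6:52164249-52164610, also inside Hoxa2, had a fold of 5.74 and a −log10 q of 4.90. Only 114 of the 91628 input 3 peaks had a higher fold than the first. Neither was listed in another library, and the other 57 input 3 peaks had folds of 3.30 to 4.14. At Hoxa4, input 1 had its highest fold of the windows, 5.25 at chr6:52192114-52192382, and input 3 had a peak at the same site with a fold of 4.02. A single site was listed in all 3 inputs, in the Hoxa flank.

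Hox genes outside the Hoxa cluster lay far from any Chd8 peak, as the plot of distances shows. The median distance from the nearer gene boundary to a Chd8 peak was 129 kb over Hox genes (0 to 289 kb) and 5.81 kb over all protein-coding genes, and 18.6% of all genes lay at least as far as the median Hox gene. Hoxa genes had a median of 9.34 kb (0 to 43.0 kb), Hoxb genes 222 kb (118 to 289 kb), Hoxc genes 162 kb (110 to 190 kb) and Hoxd genes 119 kb (89.1 to 184 kb). The Hoxa range did not overlap those of the other clusters. Genes of 1 cluster share their nearest peaks, so these are 4 stretches of chromatin and not 39 separate observations. For Chd7 the medians over Hox genes were 213 kb (ChIP 1) and 150 kb (ChIP 2), against 99.5 kb and 59.0 kb over all genes. By cluster, the ChIP 1 medians ran from 85.3 kb in Hoxa to 908 kb in Hoxd, and those of ChIP 2 from 118 kb in Hoxd to 222 kb in Hoxb. For regions in both Chd7 lists the pooled order turned, with 220 kb over Hox genes and 389 kb over all genes. It did not turn in every cluster, as Hoxa genes had a median of 140 kb and Hoxd genes 1253 kb. Input 3 lay at a median of 1.05 kb from Hox genes and 1.59 kb from all genes.

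**Figure D3:**
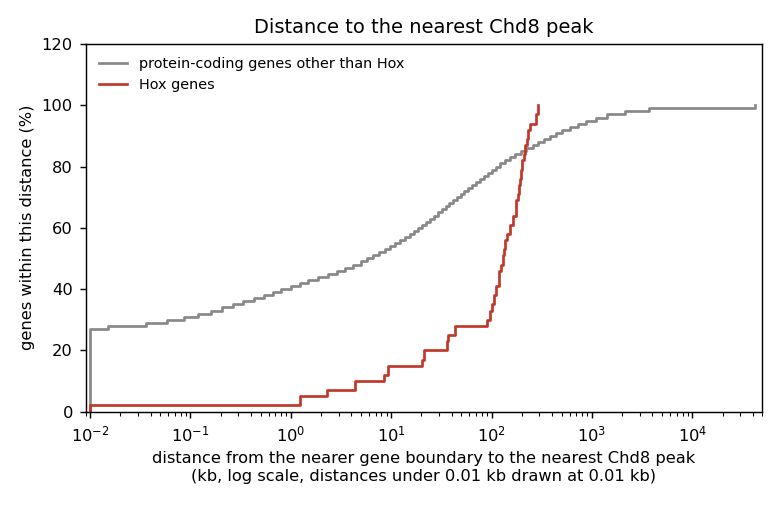
The percentage of genes within a given distance of a Chd8 peak (vertical axis) is drawn against the distance from the nearer gene boundary in kb on a log axis, in red for the 39 Hox genes and in grey for the other protein-coding genes. The red line stays under the grey line over most of the range, with medians of 129 kb for Hox genes and 5.81 kb for all protein-coding genes.

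The Hoxb, Hoxc and Hoxd clusters each lay whole inside 1 stretch without a Chd8 peak. Around Hoxb the stretch was 701 kb, from a peak at Atp5g1, a subunit gene of the mitochondrial ATP synthase (fold 9.52), to a peak at Snx11, a sorting nexin gene (fold 5.52), and both ends were also regions of both Chd7 lists. Around Hoxc it was 399.8 kb, from a peak 24.6 kb from Calcoco1 (fold 4.96) to a peak 6.23 kb from Smug1, a DNA glycosylase gene (fold 3.81). Around Hoxd it was 667 kb, from a peak inside Lnpk (fold 4.42) to a peak 481 kb beyond Hoxd1 (fold 4.56). Stretches of this length are not rare in the list: 3.72%, 7.25% and 3.93% of the 18329 gaps between neighbouring Chd8 peaks were at least as long, and such gaps hold 42.1%, 54.5% and 43.1% of the genome spanned.

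Beyond the windows, between 50 and 100 kb from a cluster, 2 more sites were listed for both proteins. At chr6:52064182-52064534, 90.8 kb outside the Hoxa cluster, both Chd7 lists had a peak (folds 5.63 and 4.72), and a Chd8 peak with a fold of 4.60 covered it. Beside the Hoxd cluster, the peak in Lnpk was listed for Chd8 and for Chd7 ChIP 2 (fold 3.20), 89.1 kb from Hoxd13.

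Hox promoter windows had a CG content near that of all promoters. RefSeq promoter windows of 300 bases were at hand for 22 of the 39 Hox genes, 24 windows in all, out of 21263. Hox windows had a median of 14.5 CG dinucleotides (4 to 45) and all windows a median of 13. A Chd8 peak touched 1 of the 24 Hox windows, that of Hoxa3, where it touched 35.1% of all windows. Among all windows with at least the Hox median of CG, 59.9% were touched by Chd8, and among those with fewer, 13.2%. The share was 1.04% at 0 to 2 CG, 69.2% at 24 to 26 and 31.2% at 45 to 47. Hoxd9 and Hoxd3, with 20 CG each like Hoxa3, had no Chd8 peak in the window. Chd7 touched no Hox window, where the lists touched 8.42% and 13.2% of all windows. Input 3 touched 4 of 24, at Hoxd10, Hoxd3, Hoxd1 and Hoxa10, where it touched 28.5% of all windows.

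**Figure D4:**
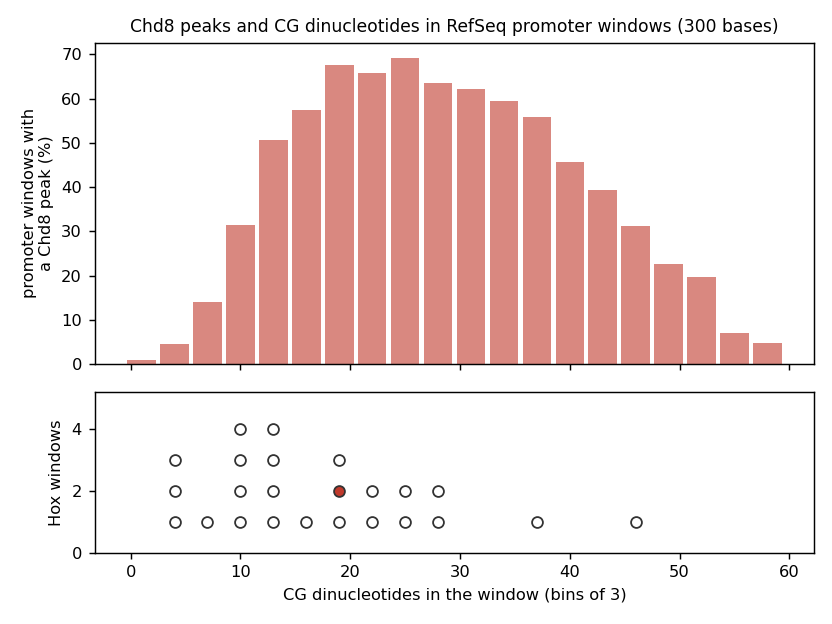
The upper panel gives the percentage of RefSeq promoter windows of 300 bases with a Chd8 peak (vertical axis) by the number of CG dinucleotides in the window, in bins of 3 with at least 20 windows each, and the lower panel stacks the 24 Hox windows on the same axis, filled where a Chd8 peak touches them. Hox windows spread over the range in which up to 69.2% of windows hold a Chd8 peak, and 1, that of Hoxa3, is filled.

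For contrast, a promoter with a Chd8 peak is shown from Pou3f4, a POU homeobox gene of the neural tube and inner ear outside the clusters. It was picked after its value was seen, as the one with the highest Chd8 fold among the homeobox genes of the lists read here. Its window, chrX:110814129-110814428 on the plus strand, is printed with CG in capitals.
Pou3f4: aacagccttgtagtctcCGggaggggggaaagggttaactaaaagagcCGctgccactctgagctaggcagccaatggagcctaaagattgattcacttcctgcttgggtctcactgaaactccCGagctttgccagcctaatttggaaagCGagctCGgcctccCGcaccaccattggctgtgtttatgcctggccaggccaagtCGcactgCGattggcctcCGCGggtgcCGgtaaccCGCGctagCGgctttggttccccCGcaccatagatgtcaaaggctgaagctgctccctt
It holds 15 CG at 57.7% GC, close to the 14 CG and 58% of the Hoxb4 window above. The Chd8 peak at this end of the gene has a fold of 6.56 and covers bases 28 to 300, and the Hoxb4 window has no peak of any library. Both genes were chosen by their peaks, so this contrast was fixed by the choice and tests nothing about CG content.

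Short motifs were searched on both strands of the windows. TAATTA, the core that many homeodomains bind, was in 2 of 24 Hox windows (8.33%, all windows 4.53%), both of Hoxd11. TGATTNAT, bound by PBX and HOX proteins together, was in 2 (8.33%, all 2.75%), at Hoxa2 and Hoxd11. TATAAA was in 4 (16.7%, all 12.6%), at Hoxa10, Hoxb8, Hoxd13 and Hoxd4. CACGTG, the E-box of bHLH factors, was in 5 (20.8%, all 7.84%), and all 5 were Hoxd genes: Hoxd1, Hoxd4, Hoxd10, Hoxd11 and Hoxd13. Every Hoxd gene had a window, but in Hoxb only Hoxb1, Hoxb4 and Hoxb8 had, and in Hoxc only Hoxc4. The motif was thus hardly searched in the Hoxb and Hoxc clusters, and a limit to Hoxd is not shown. The CTCF-like core was in 0 of 24 (all 2.34%), which says only that its letters are not in these windows. The Hoxa3 window, the one with a Chd8 peak, held none of the 5 motifs.

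Genes that work with or on Hox genes were read in the same way. The cofactors of the Pbx, Meis and Pknox families, TALE homeodomain proteins that bind DNA with Hox proteins, had Chd8 at an end in 7 of 9 genes, with folds of 5.66 at Pbx3 and 5.06 at Meis1. Chd7 ChIP 2 had 3 of the 9 (Meis1, Pbx3 and Pbx4), beside 17.0% of all genes, Chd7 ChIP 1 had 0, beside 10.4%, and regions of both Chd7 lists were at 0 of the 9. Trithorax and Polycomb regulators had Chd8 in 15 of 22, with folds of 7.10 at Pcgf2, a Polycomb ring finger subunit, and 6.85 at Men1, the menin gene of the Trithorax methylase complex. Regions of both Chd7 lists were at Men1, at Ezh2, the methylase of Polycomb repressive complex 2 (PRC2), and at Cbx8, a Polycomb chromodomain reader. These counts stand beside 41.0% of all genes for Chd8 and 4.83% for regions of both Chd7 lists. The Chd8 share was thus 68.2% in these regulators and 2.56% in the Hox genes, and the difference was not tested.

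Evx, Gbx, Mnx, Cdx, Gsx and Pdx1 genes, linked to Hox clusters or to the sister ParaHox cluster, had Chd8 in 1 of 11, at Gsx1 (fold 4.53). All Chd8 counts of this paragraph stand beside 41.0% of all genes. A low Chd8 share was thus not found in Hox genes alone, though Evx2 of this list lies inside the Hoxd window. Chd7 ChIP 2 had 3 of these 11 (Gbx2, Gsx1 and Gsx2), beside 17.0% of all genes. Chd7 ChIP 1 had 0 of the 11, beside 10.4%, and regions of both Chd7 lists 0, beside 4.83%. Forebrain and other homeobox genes had Chd8 in 9 of 34 (26.5%), with folds of 6.56 at Pou3f4 and 5.45 at Pou3f2. Pou3f2 and Pou3f3, POU factors of neural cells, were also in both Chd7 lists. OPC markers had Chd8 in 6 of 8, with folds of 5.94 at Gpr17 and 5.34 at Olig2, and Gpr17 was in both Chd7 lists. Peaks at these genes are no measure of their RNA, so the cell label was not checked by expression. Input 3 was at an end in 6 of 9 cofactors, 6 of 11 linked genes and 20 of 34 forebrain genes. It was also at 12 of 22 regulators and 5 of 8 markers, beside 45.2% of all genes. Its share thus varied less between lists than that of Chd8.

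**Figure D5:**
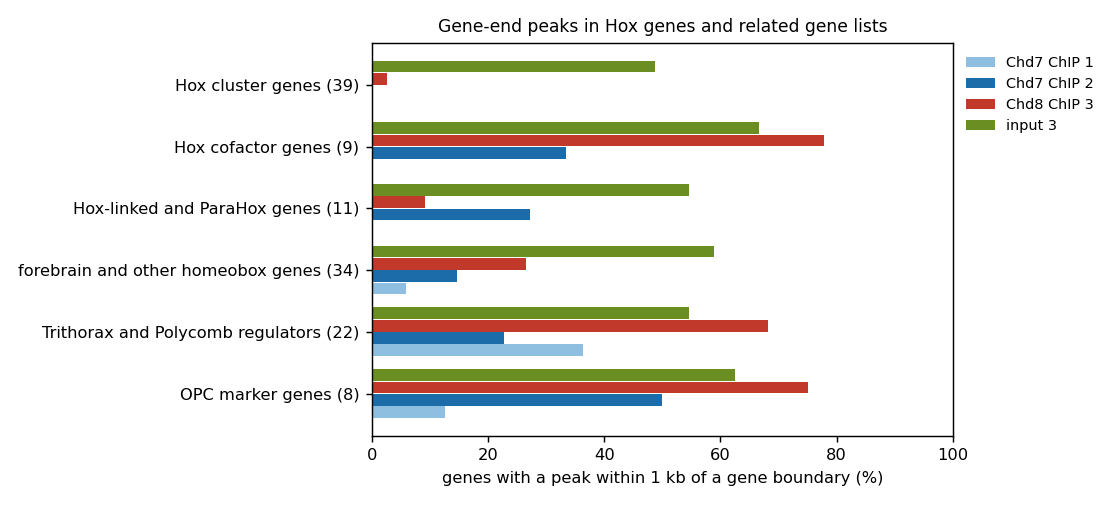
The percentage of genes with a listed peak within 1 kb of either boundary (horizontal axis) is drawn for the Hox genes and 5 related lists, with the number of genes in brackets and 1 bar each for Chd7 ChIP 1, Chd7 ChIP 2, Chd8 and input 3. Hox genes have 2.56% for Chd8 against 68.2% in the Trithorax and Polycomb list, while input 3 has 48.7% in Hox genes and 54.5% in that list.

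The other coding genes of the windows were Ttll6 and Evx2, and neither had a remodeler peak at an end. The shares of all genes were 41.0% for Chd8 and 10.4% and 17.0% for the Chd7 lists. So few genes show no difference from those shares. Evx2, an even-skipped homeobox gene next to Hoxd13, had an input 3 peak at an end (fold 3.37), as did Ttll6 (fold 3.79), beside 45.2% of all genes.

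Noncoding genes of the windows had few remodeler peaks as well. Of 29 long noncoding RNA genes, Chd8 was at an end of 1, Hoxaas3, through the Hoxa3 peak, where 14.6% of all such genes in the table had Chd8. Chd7 was at 0 of 29, where the lists had 3.98% and 5.26%. Input 3 was at an end of 17 of 29 (all such genes 21.8%), among them, named after their values were seen, Hotairm1 (fold 9.51) beside Hoxa2, Hottip (fold 3.87) beyond Hoxa13 and Haglr (fold 3.51) between Hoxd3 and Hoxd1. Inputs 1 and 2 had 3 and 4 of 29, where they had 11.3% and 17.8% of all such genes. Hotair, in the Hoxc cluster, had no peak of any library. These genes overlap or adjoin Hox genes and share their peaks.

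The windows also hold 6 miRNA genes of the Mir10, Mir196 and Mir615 families, short RNAs that lie among the Hox genes and in part target their messages. Chd8 was at 0 of the 6, where 8.96% of all miRNA genes had it, and Chd7 was at 0 of 6, where the lists had 2.28% and 3.83%. Mir196b, beside Hoxa10, had a peak of input 1 (all miRNA genes 6.35%) and of input 3 (all miRNA genes 19.5%) within 1 kb, and the other 5 had none.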

How the data were processed

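The 8 libraries were grouped by their titles, and the control of each ChIP was read from the labels. A broad peak file per library, on mm10, was deposited. Tools named in the submitters' processing notes are MACS, Picard, SAMtools and Bowtie2. Their versions and settings, and the control used in calling, were not given in the sources used here. A score per peak was deposited by the authors, and was not used. The fold of each peak over the local background is a ratio computed by the authors' caller. The −log10 p and −log10 q values of each peak were also deposited by the authors. The labels name anti-Chd7 and anti-Chd8 antibodies per sample, whereas the extraction notes name the O4 antibody, and the sample labels were followed. Track names in the Chd7 ChIP 2 and Chd8 files carry replicate numbers other than the titles, by which inputs 2 and 3 would change places.

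ChIP peaks touching a mock peak by at least 1 bp were removed. Genes came from a RefSeq table with boundaries but no strand, so both ends were used. Promoter windows with strand came from a RefSeq table of GRCm38.p6. Every Hox gene could be named (some items are not reported here), and from each related list the 2 genes with the highest Chd8 fold and all with a region of both Chd7 lists, beside genes given to complete a count of 5 or fewer. Members, lists and rules were chosen with earlier results of these data known. Counts stand beside the share of all features, and no test was made. Python 3.11.15, pandas 2.3.3, NumPy 2.4.6, SciPy 1.17.1 (Clopper-Pearson intervals) and matplotlib 3.10.9 were used, and the overlap functions were tested on simulated data. Read depth is unknown, so the number of genes and peaks sets the precision.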

Additional observations from a re-analysis of the deposited data

How the results depend on the processing

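Of 132 alternative values, 88 were counts within 1.5 times the reported ones or median distances within 1 SD over Hox genes, and 64 of these were 0 against 0. The other 44 were not. With peaks of the matching input removed, the median distance to Chd8 was 189.7 kb. At a −log10 q of at least 5, Hox genes with a peak at an end fell to 0 for Chd8, input 1 and input 2 and to 1 for input 3. Window peaks at that q fell to 0 for Chd7 ChIP 1, Chd8, input 1 and input 2 and to 1 for input 3, and no Chd7 peak touched Chd8 and no Chd8 peak the input (0 each). At a fold of at least 5, gene ends numbered 0 for Chd8, 1 for input 1, 0 for input 2 and 1 for input 3, window peaks 0, 1, 0 and 2 in the same order, and both overlap counts were 0. Among all genes, the q threshold left Chd8 at the ends of 8.28% and inputs 1 to 3 at 0.0366%, 0.0457% and 0.0503%, and the fold threshold left 17.8%, 0.224%, 0.279% and 0.137%, so input counts near 0 are what those shares give. Gene-end windows of 5 kb gave Hox counts of 4 for Chd8, 12 for input 1 and 33 for input 3, and gene bodies with 10 kb on both sides gave 6 for Chd8 and 19, 16 and 38 for inputs 1 to 3, beside 49.0% and 56.9% of all genes with Chd8. At 5 kb, inputs 1 to 3 were at 46.6%, 62.3% and 64.3% of all genes, and at gene bodies at 70.0%, 81.9% and 77.9%. RefSeq promoter windows, an alternative chosen after seeing the data, gave 1, 0 and 4 Hox genes for inputs 1 to 3. Without flanks, window peaks were 0 for Chd7 ChIP 1, 11 for input 1 and 14 for input 2. With 100 kb on both sides, they were 2 for each Chd7 list, 5 for Chd8, 1 for regions of both Chd7 lists, 39 for input 1 and 59 for input 2. A reciprocal overlap of 50%, or inputs 2 and 3 exchanged, left 0 Chd8 peaks touching the matching input. With 1 Chd7 library left out, regions in the windows ranged from 0 to 1, as did those touching Chd8. The Hoxa3 peak stayed with all peaks that touch any input removed, when Chd8 was left at the ends of 13.1% of all genes. No paired analysis was possible because the counts come from no test and Chd8 has 1 library. The Hox counts of Chd8 rest on 3 peaks of 1 library, none with a fold of 5, and depth is unknown, so weaker binding was not detectable.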

Other observations

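Other homeobox clusters were read with the same 50 kb flanks. Chd8 had 0.425 peaks per 100 kb across Irx1, Irx2 and Irx4, 0.713 across Irx3, Irx5 and Irx6 and 0.843 around Dlx1 and Dlx2, where the Hox windows had 0.336 and the genome 0.674. It had 0 around Dlx5 and Dlx6 and 0 around Dlx3 and Dlx4. The Dlx values rest on 1, 0 and 0 peaks, too few to order them. Input 3 had 7.59 peaks per 100 kb around Dlx1 and Dlx2 and 5.55 around Dlx3 and Dlx4, beside 6.61 in the Hox windows and 3.37 in the genome. It was under the genome around Dlx5 and Dlx6, at 2.53. The same held across Irx1, Irx2 and Irx4, at 2.13, and across Irx3, Irx5 and Irx6, at 2.95. A high input 3 density was thus not found in every homeobox cluster read.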
